A study of Mus musculus with 33 samples.

Results

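The genes described here are 10 long noncoding RNA genes of the mouse, Malat1, Neat1, Kcnq1ot1, Gas5, Snhg1, Snhg3, Snhg5, Snhg8, Snhg12 and Zfas1, chosen by symbol from the 55376 gene symbols of the count tables. Each symbol was found. Malat1, Neat1 and Kcnq1ot1 are retained in the nucleus, and the other 7 carry small nucleolar RNAs (snoRNAs). The study asked how nicotinamide riboside (NR), a vitamin B3 form that is converted to NAD+, alters blood stem and progenitor cells of old mice. RNA was read by total RNA sequencing, so RNAs that lack a poly(A) tail are also counted.

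The mice were wild-type males of the C57BL/6 strain, 24 to 29 months old. In cohort 2, 3 populations were sorted: hematopoietic stem cells (HSCs), progenitors of the lymphoid lineages (CLPs) and progenitors of granulocytes and monocytes (GMPs). They came from untreated old mice (O-WT) and from old mice that drank NR with their water for 4 to 6 weeks (O-NR), in 4 libraries per treatment and cell type, 24 in all. In cohort 1, HSCs alone were sorted, in 2 O-WT libraries, 4 O-NR libraries and 3 libraries of old mice that had been taken off NR for 2 months (O-NR-RC). HSCs were gated as lineage-negative cKit+ Sca1+ CD34- Flk2- CD150+ cells. Young mice are not among the libraries analysed here. No source states that a library is 1 mouse, so the p-values measure the spread between libraries, which may be partly technical. The GMP libraries have GMP in their titles and another progenitor name, common myeloid progenitor, in a second label.

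Malat1 and Neat1 are among the most abundant nuclear RNAs of mammalian cells. Malat1 collects in nuclear speckles, which hold splicing factors, while Neat1 is the scaffold on which paraspeckles are built, and the long Neat1 isoform is required for them. Kcnq1ot1 is transcribed from the paternal allele across part of the Kcnq1 gene, and silences imprinted neighbours such as Cdkn1c. The snoRNA host genes carry snoRNAs in their introns. Several hosts start at a pyrimidine tract like that of ribosomal protein genes, and the spliced host RNA is often translated for a short stretch and then removed by nonsense-mediated decay (NMD), so its level depends on decay as well as transcription.

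The sequences around the transcription starts are shown because several hosts share their marks, while the counts of these hosts differ. Each is 60 bases on the gene's own strand, from 35 before the start site, from RefSeq on GRCm38.p6. Capitals mark the letters TATA where they begin 19 to 40 bases before the start, and a run of at least 5 pyrimidines that begins with C, between 5 bases before and 15 after it. Both were searched on the gene's own strand.

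Gas5, second start, plus strand, chr1:161035131-161035190: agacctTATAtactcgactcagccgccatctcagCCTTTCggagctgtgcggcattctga

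Snhg5, minus strand, chr9:88522873-88522932: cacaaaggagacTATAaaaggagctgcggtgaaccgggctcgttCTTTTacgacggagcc

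Snhg8, minus strand, chr3:123508312-123508371: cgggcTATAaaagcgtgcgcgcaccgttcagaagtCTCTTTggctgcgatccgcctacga

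Snhg12, plus strand, chr4:132308643-132308702: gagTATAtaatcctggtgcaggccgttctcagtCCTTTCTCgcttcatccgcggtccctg

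Snhg1, plus strand, chr19:8723452-8723511: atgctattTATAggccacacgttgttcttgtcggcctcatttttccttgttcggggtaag

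Snhg3, minus strand, chr4:132353662-132353721: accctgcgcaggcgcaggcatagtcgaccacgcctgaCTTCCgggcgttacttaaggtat

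Malat1, minus strand, chr19:5802648-5802707: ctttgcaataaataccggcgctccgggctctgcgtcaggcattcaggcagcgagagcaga

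Both marks stand in the windows of Gas5 (at the second of its starts), Snhg5, Snhg8 and Snhg12. By this rule the Snhg1 window holds TATA alone and the Snhg3 window the tract alone. The Snhg1 window also holds the pyrimidine run tttttcctt in the searched stretch, which begins with T and was not marked. In Snhg5, Snhg8 and Snhg12 the marked tract follows a T of the same run. The tract of Snhg5 begins at base 10 from the start. Malat1, Kcnq1ot1, Zfas1 and the first start of Gas5 have neither. No start window was found for Neat1, so it was not examined. Of all 32851 start windows in the table, 24.3% held the tract, 5.91% held TATA and 1.56% held both. Among the 75 windows of cytosolic ribosomal protein genes the shares were 50.7%, 9.33% and 8%.

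The genes lie on 7 chromosomes of mm10 (GRCm38), in the Gencode annotation. Malat1 (chr19:5795690-5802672) and Neat1 (chr19:5824708-5845478) are neighbours on the minus strand, each a single annotated exon, of 6.98 kb and 20.8 kb. Kcnq1ot1 (chr7:143203458-143296549) is a single exon of 93.1 kb on the minus strand, antisense to Kcnq1. Among the hosts, Gas5 (chr1:161034422-161038539) and Zfas1 (chr2:167062934-167065862) are on the plus strand, with 3.76 and 2.93 kb of exons. Snhg1 (chr19:8723475-8726443) and Snhg12 (chr4:132308623-132311024) are also on the plus strand. Snhg3 (chr4:132348014-132353686), Snhg5 (chr9:88521050-88522929) and Snhg8 (chr3:123507552-123508404) are on the minus strand. Exons of another gene on the opposite strand cover 71.5% of the 0.986 kb of Snhg3 exons, which bears on its counts in cohort 1.

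Between 4792380 and 18213674 reads were counted per library in cohort 2, and between 8897256 and 23816042 in cohort 1. Marker genes went with the labels in cohort 2. The summed level of 8 HSC markers was 1352 to 1561 CPM (counts per 1000000 counted reads) in HSCs against 63.2 to 164 CPM in CLPs and 34.5 to 65.1 CPM in GMPs. The 8 CLP markers summed to at least 2538 CPM in each CLP library and the 8 GMP markers to at least 17490 CPM in each GMP library. A measure that moved with many results is the summed CPM of 1971 olfactory and vomeronasal receptor genes, which blood cells are not known to use. It was 858 to 8303 CPM in cohort 2 and 4445 to 15260 CPM in cohort 1. The trimmed mean (TMM) scaling factors of edgeR followed it, with a Pearson r of 0.97 between their logs over the 24 libraries of cohort 2, a description over libraries that share cell types. Levels below are therefore CPM of each library's own total, and folds are from the TMM fits. Other scalings are named where they change a call of one of the 10 genes between O-WT HSCs and a progenitor.

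**Figure D1:**
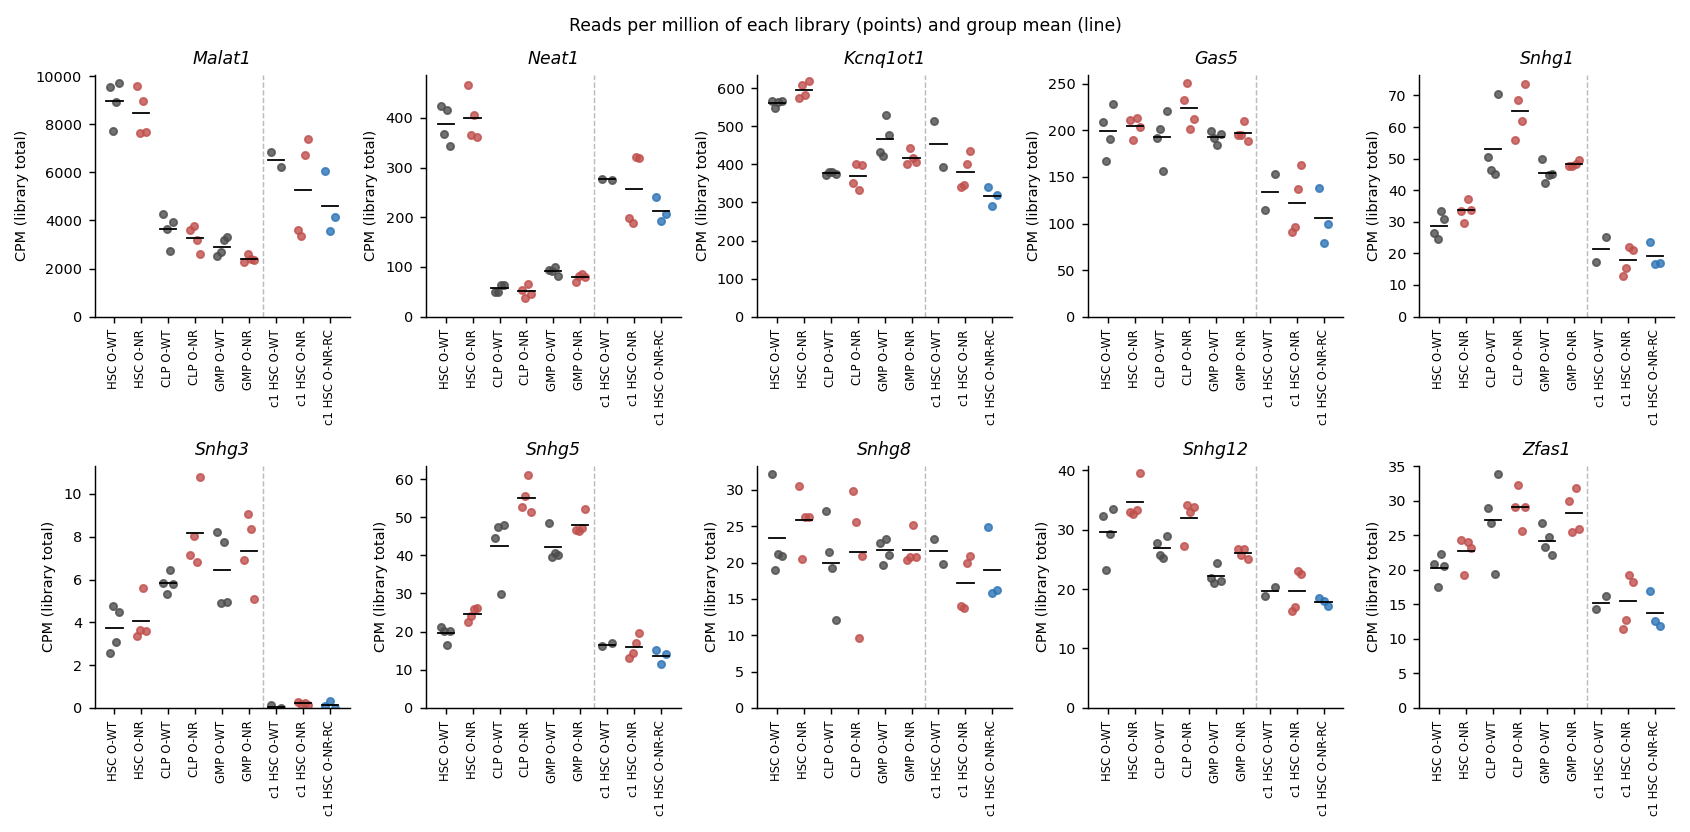
Level of each of the 10 genes (CPM of the library total, linear axis, 1 panel per gene) in each of the 33 libraries, by group along the horizontal axis, with a point per library and a line at the group mean. Malat1 and Neat1 are highest in the HSC groups of cohort 2, while Snhg1, Snhg5 and Zfas1 have their higher means in CLPs and GMPs.

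Per kilobase of exon, Malat1 was the most abundant of the 10 in every cell type, with means over the 8 libraries of 1248 CPM per kb in HSCs, 496 in CLPs and 381 in GMPs. Gas5 was next, at 53.6, 55.4 and 51.9 CPM per kb. Neat1 was the fourth in HSCs, at 18.96 CPM per kb after Snhg8 at 28.9, and the last of the 10 in CLPs and GMPs, at 2.58 and 4.11 CPM per kb. Snhg5 went from 12.8 CPM per kb in HSCs to 28.2 in CLPs and 26.1 in GMPs, where it stood next to Snhg8 at 24.3 and 25.5. Snhg3 was the last in HSCs at 3.94 CPM per kb. Kcnq1ot1, at 6.22, 4.01 and 4.74 CPM per kb, was near the low end per length although it had more reads than any host. Neat1 and Kcnq1ot1 are taken over their whole annotated length, although their isoforms differ in length. For the hosts all annotated exons were merged. The merged length is the whole gene span for Snhg1, Snhg8, Snhg12 and Zfas1 and 3760 of 4118 bases for Gas5. For Snhg3 it is 986 of 5673 bases, so the order of the hosts per kb depends on the annotation. The 10 genes together took 0.890% to 1.10% of the counted reads in the HSC libraries of cohort 2, most of it Malat1.

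Between cell types, the paraspeckle scaffold Neat1 and the speckle RNA Malat1 were lower in both progenitors than in HSCs, and the hosts Snhg1 and Snhg5 were higher, in untreated and in NR-treated mice. Against O-WT HSCs, Neat1 was 7.94-fold lower in CLPs and 3.41-fold lower in GMPs, and Malat1 2.81-fold and 2.52-fold lower. Snhg5 was 1.92-fold and 2.66-fold higher. These are the cell types in bulk samples of sorted cells, in which fewer cells of a type and less RNA per cell cannot be told apart.

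Neat1 was measured in O-WT HSCs at 424, 368, 416 and 343 CPM. In O-WT CLPs it was at 49.5, 49.1, 63.9 and 63.7 CPM, and in O-WT GMPs at 94.2, 90.9, 98.9 and 82.1 CPM. The 3 sets are far apart, with GMPs between the others, and no value of one lies in the range of another. The log2 fold change was -2.99 (SE 0.193, edgeR adjusted p = 1.39e-16) in CLPs and -1.77 (SE 0.183, edgeR adjusted p = 6.71e-11) in GMPs. In NR-treated mice Neat1 ranged from 362 to 466 CPM in HSCs, from 38.2 to 64.8 CPM in CLPs and from 69.2 to 86.7 CPM in GMPs. Those ranges were again apart, and the log2 fold changes were -3.13 and -2.19.

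Malat1 was at 9550, 7704, 8915 and 9699 CPM in O-WT HSCs. It was at 4259, 3624, 2747 and 3915 CPM in O-WT CLPs, and at 2519, 2675, 3173 and 3293 CPM in O-WT GMPs. All HSC libraries are above all others, while CLPs and GMPs overlap. The log2 fold change was -1.49 (SE 0.234, edgeR adjusted p = 1.53e-06) in CLPs and -1.33 (SE 0.233, edgeR adjusted p = 6.72e-06) in GMPs. NR-treated mice had -1.49 and -1.67, with edgeR adjusted p of 1.37e-06 and 1.16e-07.

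The neighbours Malat1 and Neat1 did not change in proportion. For each read of Neat1 there were 20.6 to 28.3 reads of Malat1 in the 8 HSC libraries of cohort 2, with a median of 21.3. The ratio was 43.0 to 99.1 in CLPs, with a median of 64.4, and 26.7 to 40.1 in GMPs, with a median of 30.8. No CLP library was within the range of the other cell types, and HSCs and GMPs overlapped slightly. This ratio does not depend on the scaling of the libraries.

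Kcnq1ot1, the antisense RNA of the Kcnq1 domain, was at 567, 549, 564 and 567 CPM in O-WT HSCs, at 372, 379, 381 and 375 CPM in O-WT CLPs and at 434, 423, 529 and 477 CPM in O-WT GMPs. These 3 ranges do not overlap. It was lower in CLPs by the test, with a log2 fold change of -0.79 (SE 0.172, edgeR adjusted p = 0.000300), although without a filter on low counts the adjusted p was 0.0572. For GMPs the log2 fold change was 0.03 (SE 0.170, edgeR adjusted p = 0.882) with TMM scaling and -0.28 (adjusted p = 0.00455) with library totals alone, so no direction can be given there.

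**Figure D2:**
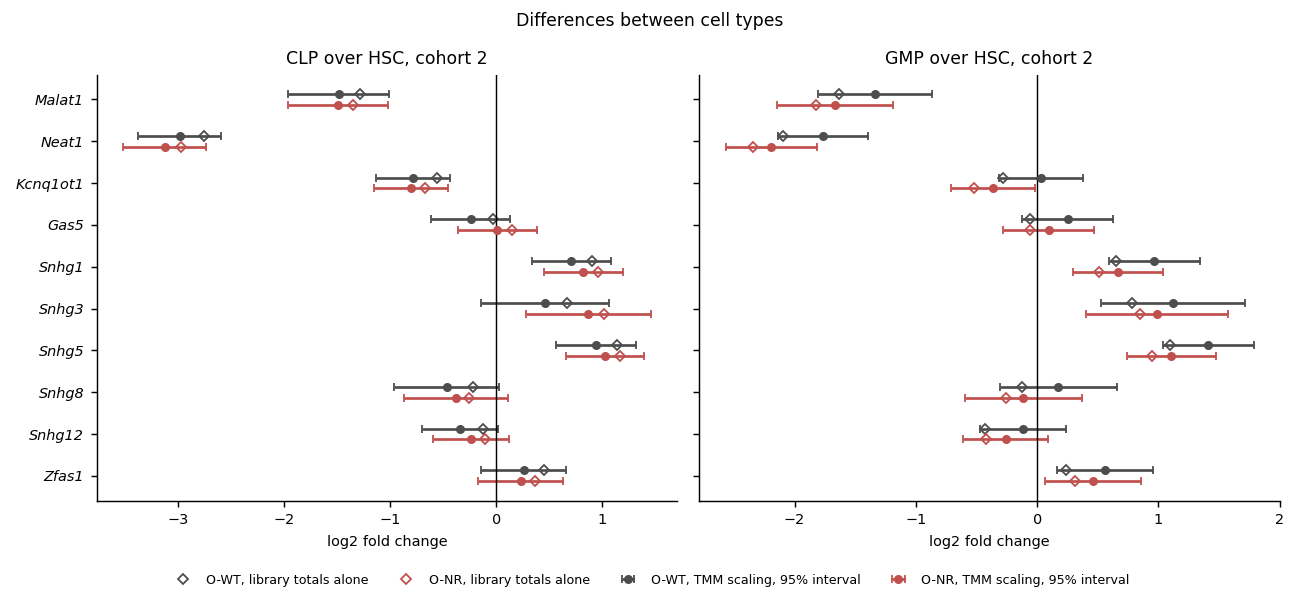
Log2 fold change of each gene against HSCs in CLPs (left) and in GMPs (right), for O-WT (grey) and O-NR (red). Filled points are TMM folds with bars for the 95% confidence interval from edgeR over 24 libraries, and open diamonds are folds with library totals alone. Neat1 and Malat1 lie far to the left of zero in both panels, and Snhg5 to the right.

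Snhg5, which hosts U50 snoRNAs, was at 21.3, 20.3, 16.5 and 20.1 CPM in O-WT HSCs. It was at 44.5, 47.4, 29.8 and 48.0 CPM in O-WT CLPs and at 48.5, 39.6, 40.6 and 39.98 CPM in O-WT GMPs. Every progenitor value is above every HSC value, and CLPs and GMPs overlap. The log2 fold change was 0.94 (SE 0.186, edgeR adjusted p = 7.32e-05) in CLPs and 1.41 (SE 0.185, edgeR adjusted p = 2.27e-08) in GMPs. In NR-treated mice it was 1.03 and 1.11, both past the test.

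Snhg1, which carries several box C/D snoRNAs, was at 26.4, 24.7, 33.5 and 30.7 CPM in O-WT HSCs, at 50.4, 46.4, 45.1 and 70.4 CPM in O-WT CLPs and at 50.0, 42.2, 44.9 and 45.3 CPM in O-WT GMPs. The HSC libraries were below all progenitor libraries. The log2 fold change was 0.71 (SE 0.187, edgeR adjusted p = 0.00260) in CLPs and 0.96 (SE 0.186, edgeR adjusted p = 3.44e-05) in GMPs. The call in CLPs rested on O-WT CLP library 4, without which the log2 fold change was 0.40 and the adjusted p 0.116. NR-treated mice had 0.82 in CLPs and 0.67 in GMPs, both past the test.

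Snhg3, which carries the H/ACA snoRNAs Snora73a and Snora73b, was low everywhere. It was at 2.56, 4.74, 3.06 and 4.49 CPM in O-WT HSCs, at 5.83, 5.31, 6.47 and 5.80 CPM in O-WT CLPs and at 8.22, 4.89, 7.75 and 4.93 CPM in O-WT GMPs. Both progenitors are above HSCs without overlap. In GMPs it was 2.17-fold higher (SE 0.293 on the log2 scale, edgeR adjusted p = 0.00170), and in CLPs the log2 fold change was 0.46 (SE 0.300, edgeR adjusted p = 0.273). In NR-treated mice the log2 fold change was 0.99 in GMPs and 0.87 in CLPs (edgeR adjusted p = 0.0192), and the CLP call was lost without O-NR HSC library 1, O-NR HSC library 2 or O-NR CLP library 4, with adjusted p of 0.0562, 0.0502 and 0.0909.

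Zfas1, antisense to the start of Znfx1, was at 20.9, 17.4, 22.3 and 20.6 CPM in O-WT HSCs and at 26.7, 23.3, 24.8 and 22.1 CPM in O-WT GMPs. One GMP library lies just below the highest HSC library. The log2 fold change was 0.56 (SE 0.197, edgeR adjusted p = 0.0191). The call was lost with library totals alone (0.24, adjusted p = 0.123), with the receptor gene CPM as a covariate (0.12, adjusted p = 0.620) and without O-WT GMP library 1 or 2 (adjusted p = 0.0568 and 0.0726). In CLPs, at 28.9, 26.7, 19.4 and 33.9 CPM, the log2 fold change was 0.26 (edgeR adjusted p = 0.362), a value that was not past the test with TMM and was past it with upper quartile scaling (0.53, edgeR adjusted p = 0.0101) and with library totals (0.45, edgeR adjusted p = 0.0119). It also passed with the covariate (0.51, edgeR adjusted p = 0.00354) and without O-WT CLP library 3 (0.56, edgeR adjusted p = 0.0318). In NR-treated mice Zfas1 did not pass in GMPs or CLPs in the main fit. There, 13 of 30 alternatives called it in GMPs, where their log2 fold changes ran from 0.26 to 0.69, and 3 of 30 in CLPs.

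Gas5, the most abundant host per length and a host of 8 annotated snoRNAs, kept close levels. Its 24 libraries ranged from 156 to 251 CPM, and the log2 fold change against O-WT HSCs was -0.24 (SE 0.185, edgeR adjusted p = 0.364) in CLPs and 0.25 (SE 0.185, edgeR adjusted p = 0.261) in GMPs. Snhg8 had log2 fold changes of -0.47 (SE 0.246) and 0.17 (SE 0.240), with edgeR adjusted p of 0.161 and 0.551, and passed in CLPs without O-WT CLP library 1 (-0.77, edgeR adjusted p = 0.0224). Snhg12 had -0.34 (SE 0.178) and -0.12 (SE 0.176), with edgeR adjusted p of 0.160 and 0.578, and with library totals alone it was lower in GMPs, by -0.43 with an adjusted p of 0.00251, and with the covariate by -0.44 with an adjusted p of 0.0110. Without O-WT HSC library 2 it was lower in CLPs (-0.46, edgeR adjusted p = 0.0440). Gas5, Snhg5, Snhg8 and Snhg12 share both marks in their start windows, and whether the marks bear on their levels was not tested. A difference between hosts was not tested either. Reads of Snhg5 per read of Gas5 were 0.0860 to 0.129 in HSCs, 0.191 to 0.302 in CLPs and 0.204 to 0.277 in GMPs.

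In counts, 5 of the 10 genes passed the test between CLPs and HSCs of O-WT, 2 of them higher and 3 lower, where 28.8% of all 22573 genes tested passed (8.52% higher and 20.2% lower). In O-NR the count was 6, with 3 higher and 3 lower, against 31.5% of all genes (11.0% and 20.5%). Between GMPs and HSCs it was 6 in O-WT, 4 higher and 2 lower, against 43.1% (19.4% and 23.7%), and 5 in O-NR, 3 higher and 2 lower, against 36.5% (16.1% and 20.4%). The median log2 fold change of the 10 genes in O-WT was -0.29 in CLPs and 0.21 in GMPs, beside 0.06 and -0.42 over all genes tested. The last value would be -0.73 with library totals alone, so GMP folds from TMM read as higher than ratios of the printed CPM by the difference of the 2 scalings.

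Between the progenitors themselves, Neat1 was higher in GMPs than in CLPs, with a log2 fold change of 1.22 (SE 0.183, edgeR adjusted p = 7.26e-07) in O-WT and 0.94 (SE 0.183, edgeR adjusted p = 7.84e-05) in O-NR. Kcnq1ot1 was higher by 0.82 in O-WT (SE 0.172, edgeR adjusted p = 0.000146) and by 0.44 in O-NR (SE 0.171, edgeR adjusted p = 0.0366), and the second call was lost in 11 of 30 alternatives. Among these were upper quartile scaling (0.15, edgeR adjusted p = 0.203), library totals (0.15, edgeR adjusted p = 0.109), no filter (edgeR adjusted p = 0.141), the covariate (0.18, edgeR adjusted p = 0.224) and the replicate number as a block (edgeR adjusted p = 0.0638). The other 6 left out 1 library, O-NR CLP 1, 3 or 4, O-NR GMP 1 or 4 or O-WT GMP 1, with adjusted p of 0.0514 to 0.134. Gas5 (0.49), Snhg3 (0.66), Snhg5 (0.47) and Snhg8 (0.64) also passed in O-WT, with edgeR adjusted p of 0.0230 to 0.0491, but none passed with upper quartile scaling or library totals alone, and Gas5 and Snhg5 changed sign with the latter. All 4 calls were also lost without O-WT CLP library 3 and without O-WT GMP library 2, and that of Snhg3 with the replicate block (adjusted p = 0.0747). Thus 6 of 10 passed in O-WT, beside 59.0% of all genes (26.3% higher and 32.7% lower), and 2 of 10 in O-NR, beside 39.2% (19.2% and 20.1%). In O-NR the count was 1 of 10 with the replicate block, beside 35.3% of all genes. Malat1 was not called in O-WT (0.15), but 2 of 31 alternatives called it with the opposite sign. Zfas1 was called in 2 of the 31, Snhg1 in 1, and Snhg12 in 1 with the opposite sign.

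Among other genes of the same processes, listed with earlier results of these data known, the proteins of the snoRNPs were higher in GMPs. All 10 of them passed the test between O-WT GMPs and HSCs, with a median log2 fold change of 1.15, and 9 still did with library totals alone. Nhp2, of the H/ACA particle, was higher by 1.52, the pseudouridine synthase Dkc1 by 1.36 and Nop56, of the box C/D particle, by 1.496. In CLPs only 2 of 10 passed, Snu13 (0.61) and Nop56 (0.61), and 6 did with library totals.

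Of 15 paraspeckle proteins, 10 were higher and 1 lower in O-WT GMPs than in HSCs, with a median log2 fold change of 0.66, against the lower Neat1. Dazap1 was higher by 1.15, Rbm14 by 0.98 and Nono, a core protein bound to Neat1, by 0.90, while Hnrnph3 was at -0.44. In CLPs 1 was higher (Smarca4, 0.68) and 1 lower (Hnrnph3, -0.998), and 7 were higher with library totals. Of 15 speckle proteins, 11 were higher and 1 lower in GMPs, median 0.62, with Srsf2 (1.22), Srsf1 (1.05) and Srsf10 (0.99) leading and Srsf5 lower (-0.54). In CLPs 4 were higher, among them Srsf10 (0.74), Srsf3 (0.57) and Srsf2 (0.52), and Srsf5 (-0.78) and Acin1 (-0.64) were lower. Of 14 NMD factors, 7 were higher in GMPs (median 0.48), led by the exon junction proteins Magoh (1.40) and Eif4a3 (1.40) and by Smg5 (1.03), while with library totals 7 were higher and 3 lower. In CLPs none was higher, and Smg9 (-0.67) and Upf3b (-0.52) were lower, while with library totals 3 were higher and 1 lower.

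Other noncoding RNAs went in both directions. Of 14 other nuclear RNAs tested, 5 were lower and 2 higher in O-WT CLPs, and 7 were lower and 1 higher in GMPs. The imprinted Meg3 (-2.53 and -3.64) and Rian (-1.99 and -2.85) were lower in both. Firre was lower in CLPs (-2.41) and Peg13 in GMPs (-2.16), named there within the limit of 3 genes per direction. Neither was low in that cell type alone. Firre averaged 177 CPM in O-WT HSCs, 38.3 in CLPs and 39.0 in GMPs, and Peg13 95.2, 55.2 and 17.2 CPM. The host of the miR-17 cluster, Mir17hg, was higher in both (0.55 and 0.54) and Ftx in CLPs (0.50). Mir17hg averaged 22.4 CPM in O-WT HSCs and 26.6 CPM in GMPs. Of 10 other snoRNA hosts tested, Snhg4 was higher in both progenitors (1.04 and 1.61) and Snhg15 in GMPs (0.58). In mean CPM the rise of Snhg15 was smaller, from 12.8 CPM in O-WT HSCs to 15.3 CPM in O-WT GMPs. Snhg20 was lower in both (-1.04 and -0.94), Snhg17 and Epb41l4aos in CLPs (-0.65 and -0.93) and Snhg18 in GMPs (-2.62). The medians of that list were -0.42 in CLPs and -0.35 in GMPs.

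In the imprinted domain of Kcnq1ot1, 9 genes were tested. Cdkn1c, the cell cycle inhibitor p57 that Kcnq1ot1 silences on the paternal allele, was lower in both progenitors, by -4.54 in CLPs and -5.20 in GMPs. Cd81 was also lower in both (-0.94 and -0.89), Tspan32 in CLPs (-1.004) and Slc22a18 in GMPs (-1.67). Osbpl5 was higher in CLPs (0.70), and Tssc4 (0.75) and Nap1l4 (0.52) in GMPs. These are TMM folds, and in mean CPM the rises in GMPs were smaller. Tssc4 averaged 11.6 CPM in O-WT HSCs and 15.8 CPM in O-WT GMPs, and Nap1l4 110 and 127 CPM. Kcnq1ot1 was thus lower with Cdkn1c in CLPs, and had no settled direction in GMPs. The counts do not tell the parental alleles apart.

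The snoRNAs inside the hosts could be read for few. Of 27 annotated snoRNAs within the 7 hosts, 24 had no read in any of the 24 libraries of cohort 2. All 24 lie wholly within annotated host exons, where reads that overlap both genes can have been left out of the counts. Snora73b, a 205-base H/ACA snoRNA in Snhg3, was counted at 136 ± 23.8 CPM (SD, n = 4) in O-WT HSCs, 74.5 ± 20.03 CPM in O-WT CLPs and 59.8 ± 9.35 CPM in O-WT GMPs. It was lower in both progenitors, with log2 fold changes of -1.05 (SE 0.212, edgeR adjusted p = 0.000109) and -0.90 (SE 0.211, edgeR adjusted p = 0.000493), whereas its host was higher in GMPs. Reads of Snora73b per read of Snhg3 were 22.7 to 63.8 in the 8 HSC libraries, 8.65 to 16.5 in CLPs and 5.67 to 11.3 in GMPs. HSCs are above both progenitors in every library. Snora73b lies on its host's strand outside the annotated host exons, in an interval that an exon of another gene covers on the opposite strand, and the ratio is one of assigned reads.

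NR in cohort 2 changed none of the 10 genes past an adjusted p of 0.05 in any cell type. No gene of all tested passed in HSCs, CLPs or GMPs either (0% of 17364, 19909 and 13486). By edgeR, 667, 639 and 648 genes had an unadjusted p below 0.05 there, 1, 1 and 4 of them among the 10, and DESeq2 called 4, 0 and 8 genes, edgeR with the receptor gene CPM as a covariate 24, 0 and 0, and edgeR without a filter 39, 1 and 6, none of them among the 10. At an unadjusted p below 0.01 the counts among the 10 were 0, 0 and 1, where 0.726%, 0.412% and 0.986% of all genes passed.

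In HSCs the 10 log2 fold changes ran from -0.06 (Malat1) to 0.37 (Snhg5), and 9 of them were above 0. Their median was 0.17, beside -0.02 over all genes. Snhg5 was at 22.6, 24.2, 26.0 and 26.2 CPM in O-NR HSCs, each above the O-WT libraries given earlier, the highest of which was at 21.3 CPM. Its log2 fold change had an SE of 0.134, an edgeR p of 0.0148 and an edgeR adjusted p of 0.995. Kcnq1ot1 was at 575, 608, 583 and 620 CPM, also above all O-WT libraries, with a highest O-WT value of 567 CPM. These 2 of the 10 had O-NR and O-WT ranges that did not overlap, against 3.09% of all genes. The summed plasma and B cell markers were 204 to 936 CPM in the O-WT HSC libraries and 77.7 to 196 CPM in the O-NR ones, and their part in these values was not tested.

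In CLPs the log2 fold changes ran from -0.05 (Neat1) to 0.61 (Snhg3), with a median of 0.29 beside -0.0050 over all genes. Snhg5 was at 52.6, 55.5, 61.0 and 51.4 CPM in O-NR, above the highest O-WT value of 48.0 CPM, with a log2 fold change of 0.47 (SE 0.200), an edgeR p of 0.0259 and an edgeR adjusted p of 0.9996. Snhg3 was at 7.14, 8.04, 6.82 and 10.8 CPM, above the highest O-WT value of 6.47 CPM. They are the 2 of 10 whose ranges did not overlap in CLPs, against 2.97% of all genes.

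In GMPs the log2 fold changes with NR ran from -0.30 (Malat1) to 0.20 (Snhg12), and none of the 10 passed the adjusted threshold. Malat1 was at 2265, 2623, 2396 and 2348 CPM in O-NR, against 2519 to 3293 CPM in O-WT, so that 1 O-NR library lies within the O-WT range. Its log2 fold change was -0.30 (SE 0.0893), with an edgeR p of 0.00452 and an edgeR adjusted p of 0.905. Neat1 had -0.24 (SE 0.0939) and Kcnq1ot1 -0.19 (SE 0.0834), with edgeR p of 0.0230 and 0.0421 and edgeR adjusted p of 0.997 for both. All 3 are past an unadjusted 0.05 and none after adjustment. Snhg12 was at 26.7, 25.7, 26.7 and 25.1 CPM in O-NR against 21.9, 21.1, 24.5 and 21.4 CPM in O-WT. It was the only one of the 10 whose ranges did not overlap, against 3.49% of all genes, and its log2 fold change was 0.20 (SE 0.0922), with an edgeR p of 0.0451 and an edgeR adjusted p of 0.997.

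**Figure D3:**
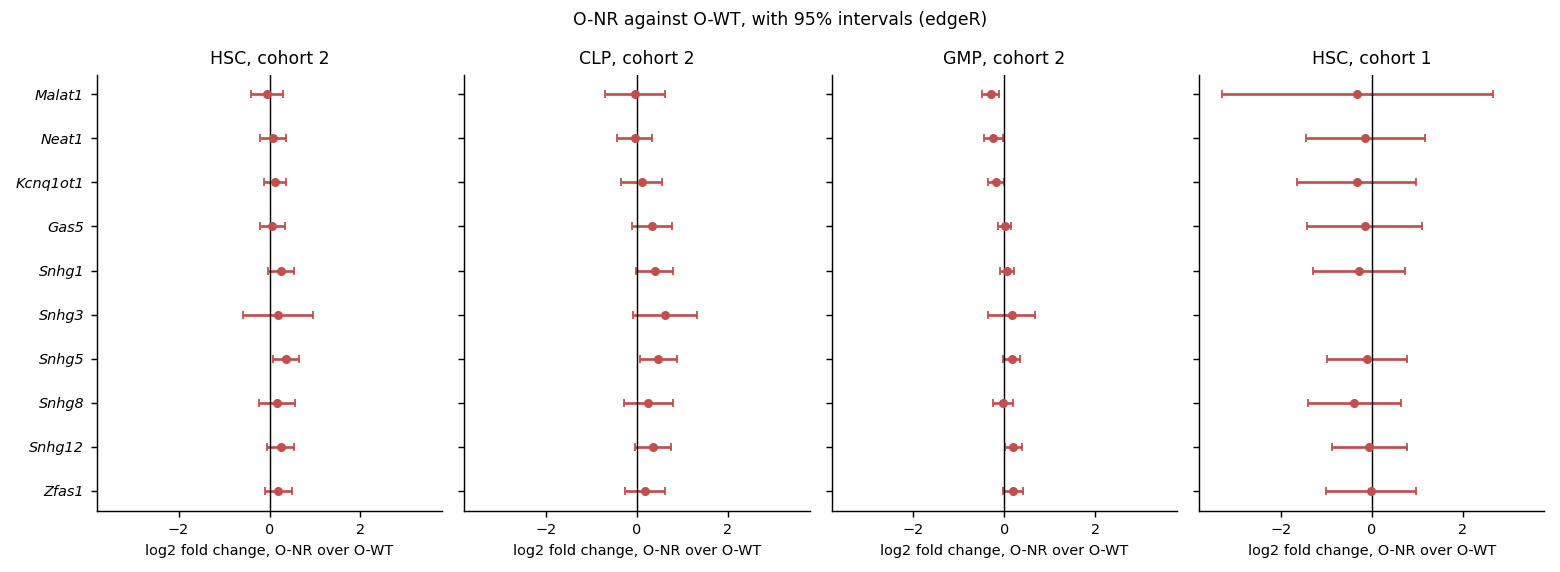
Log2 fold change of O-NR against O-WT for each of the 10 genes in HSCs, CLPs and GMPs of cohort 2 and in HSCs of cohort 1, with 95% confidence intervals from edgeR. Most intervals contain zero, those of cohort 1 are the widest, and Snhg3 has no value in cohort 1.

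The differences of the NR effect between cell types did not pass for any of the 10 genes in edgeR's interaction test, and none had an unadjusted p below 0.05. The test called 1 gene of all 22573 between CLPs and HSCs (0.00443%), 1 between GMPs and HSCs (0.00443%) and none between GMPs and CLPs (0%), where 537, 321 and 803 genes had an unadjusted p below 0.05 and DESeq2 called 2, 0 and 0. The effects in GMPs minus those in HSCs ran from -0.42 (Neat1) to -0.10 (Zfas1), and that of Zfas1 was above 0 with upper quartile scaling (0.036) and library totals (0.068). Of the lists of related genes, none had a member past the adjusted threshold with NR. The smallest edgeR p in HSCs named by the rule included Rian, at a log2 fold change of -0.47 with a p of 0.00176.

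In cohort 1 the test had 9 of the 10 genes, since Snhg3 had 0 to 4 reads per library. None passed an adjusted p of 0.05 between O-NR and O-WT, O-NR-RC and O-NR or O-NR-RC and O-WT, nor did any gene of the 33350 tested (0%). The genes with an unadjusted p below 0.01 were 0.0480%, 0.0360% and 0.0780% of all, none of the 9 among them, and those below 0.05 numbered 182, 97 and 265 by edgeR, while DESeq2 called 0, 2 and 0. With the receptor gene CPM as a covariate edgeR called 2, 18 and 3 genes (0.00600%, 0.0540% and 0.00900%), again none of the 9. The log2 fold changes ran from -0.38 (Snhg8) to -0.02 (Zfas1) with NR, from -0.32 (Neat1) to 0.18 (Snhg8) after withdrawal, and from -0.62 (Kcnq1ot1) to -0.17 (Snhg1) between O-NR-RC and O-WT. The SE with NR were 0.385 to 1.38, so differences well above 2-fold would not have been detectable for Malat1.

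The spread in cohort 1 came with 4 libraries, O-NR 1, O-NR 2, O-NR-RC 2 and O-NR-RC 3, which had a receptor gene CPM of 14277 to 15260, against 4445 to 9082 in the other 5. Malat1 was at 3602 and 3356 CPM in O-NR 1 and 2 and at 3574 and 4139 CPM in O-NR-RC 2 and 3. In the other 5 libraries it was at 6849 and 6203 CPM (O-WT), 6725 and 7387 CPM (O-NR) and 6047 CPM (O-NR-RC). Both sets hold O-NR and O-NR-RC libraries, and O-NR libraries are at both ends. For 8 of the 10 genes all 4 values lay below the other 5, against 11.0% of the 33350 genes tested. Without these 4 libraries, which leaves 1 O-NR-RC library that is assumed to vary like the others, none of the 9 genes passed in the 3 comparisons, while 76, 165 and 576 of 28275 genes did (0.269%, 0.584% and 2.04%).

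**Figure D4:**
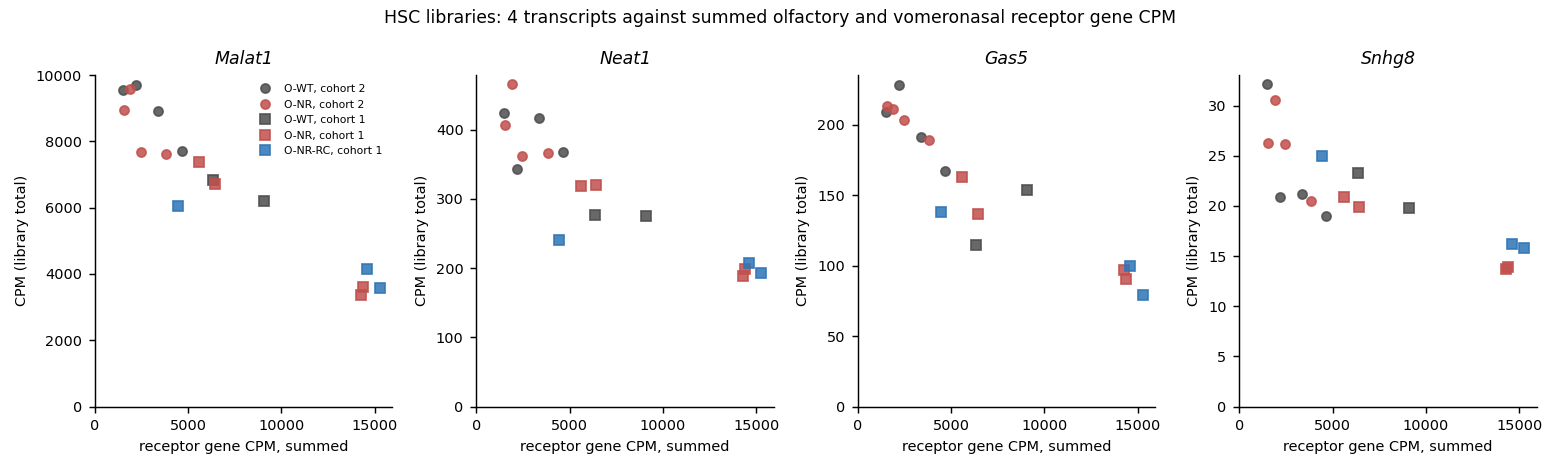
Level (CPM of the library total) of Malat1, Neat1, Gas5 and Snhg8 in each HSC library against the summed CPM of receptor genes, with cohort and treatment by symbol. The 4 libraries at 14277 CPM of receptor genes or more have the lowest levels of each gene shown.

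With the HSCs of both cohorts in 1 fit, NR gave log2 fold changes from -0.13 (Malat1) to 0.39 (Snhg3), and none of the 10 passed. No gene of the 23413 tested did (0%), 24 of them had an unadjusted p below 0.01 (0.103%) and 216 one below 0.05, and DESeq2 called none. The difference of the NR effect between cohorts did not pass for any of the 10, nor for any of 31596 genes (0%, with 603 at an unadjusted p below 0.05 and none by DESeq2). With the replicate number as a block, 9 of the 10 passed, beside 4751 of the 31596 genes (15%), but that fit keeps the effect in cohort 1 to its pairs 1 and 2, whose O-NR libraries are those of high receptor gene CPM.

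The counts of the cohorts differed in all 10 genes. Counted HSC levels were lower in cohort 1 for each, past the test in a contrast in which 72.4% of all 23413 genes passed. For Snhg3 the counts are not read as a difference in level, for the reason given below. Without Snhg3 the log2 fold changes were -1.21 to -0.89. With the receptor gene CPM as a covariate, 1 of the 10 passed, Snhg3, beside 8.80% of all genes, and Malat1 and Snhg8 were then at 0.11 and 0.34. For 6 of the 10 genes all 9 values of cohort 1 lay below all 8 HSC values of cohort 2, as they did for 2.90% of the 23413 genes. Cohort and anything else that differed between the cohorts cannot be told apart.

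Snhg3 differed in kind. It had 0 to 4 reads in the libraries of cohort 1, against 29 to 79 reads in the HSC libraries of cohort 2. Snora73b also had 0 reads in every library of cohort 1, against 908 to 2133 reads in cohort 2 HSCs. Of 447 genes that lie wholly under exons of genes on the opposite strand, 99.3% had no read in any of the 9 libraries of cohort 1, against 4.47% in the 8 HSC libraries of cohort 2. For 622 genes wholly under same-strand exons, the shares were 97.6% and 98.9%. Most Snhg3 exon bases lie under such an opposite-strand gene, and the strand setting of the counting is not given in the sources used here, so no fold between cohorts is given for Snhg3.

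For each of the 10 genes, the pair of genes with the most similar pattern was sought among the 22573 tested, by Pearson r of log2 CPM over the 24 libraries of cohort 2. The libraries share 3 cell types, so r mostly ranks agreement between cell types and is a description. Malat1 was like Plekho2 (r 0.99), and Neat1 was most like Sec14l1 (r 0.99) and Mindy1 (r 0.98). Kcnq1ot1 was most like Rabac1 and Telo2 (both r 0.96). Of the hosts, Gas5 went with Cnbp (r 0.95) and Rps15a, a ribosomal protein (r 0.95), Snhg1 with Prdx1 and Polr2a (both r 0.95), and Snhg5 with Cnot9 (r 0.98) and Paxip1 (r 0.97). Zfas1 was most like Pum2 (r 0.94) and Maz (r 0.93), and Snhg12 like Isoc1 (r 0.90) and Gm26448 (r 0.88). The lowest best matches were those of Snhg3, with Atr and Rnf26 (both r 0.87), and of Snhg8, with Egln2 (r 0.86) and Zfp955a (r 0.85).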

How the data were processed

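Levels were taken from the gene counts of 33 libraries. Per the methods, the authors made the libraries with a total RNA kit, trimmed the reads with cutadapt, aligned them to mm10 with STAR, assigned them to genes with featureCounts and deposited whole-number counts without normalization. The strand setting and the treatment of reads shared by genes are not given in the sources used here. Groups follow the labels. The 10 genes, the gene lists and the tests were chosen with earlier results of these data known. Named were all 10 genes, of each list up to 3 genes per direction with the smallest p among those called in the O-WT cell type contrasts and up to 2 with the smallest p with NR, and the 2 genes most like each. Some genes this rule names are not reported here.

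A gene was tested where its level exceeded 3 CPM in a number of libraries no smaller than the smallest group. edgeR 4.0.16 (R 4.3.3) with TMM scaling and its quasi-likelihood test was used, with Benjamini-Hochberg adjustment over all genes tested. A gene passed below an adjusted p of 0.05. Each cell type was fitted alone for NR, cell types in 1 fit of 24 libraries, and cohort 1 as 9 libraries. Log2 CPM used a prior count of 2. Alternatives were upper quartile scaling, library totals, no filter, DESeq2 1.42.0, the replicate number as a block, each library left out in turn and, added after seeing the data, the receptor gene CPM as a covariate and leaving out 4 libraries. The fits were tested on simulated data. No 2 libraries of a group were as close as sampling noise, with a smallest chi-square per degree of freedom of 1.96. Libraries of cohort 1 lay close in pairs. O-NR 1 and 2 were at 1.96 and O-NR 3 and 4 at 3.84, against 53.1 to 71.7 across these pairs. O-NR-RC 2 and 3 were at 4.02, against 102 and 73.2 with O-NR-RC 1. Whether the libraries of a close pair are independent was not tested. Same-numbered libraries of the 3 cell types of cohort 2 carry the same number in the deposited names. Their deviations correlated above 0.1 in all 4 pairs of O-WT HSCs and CLPs (0.120 to 0.360), and in 2 of the other 20 pairs. Same-numbered O-WT and O-NR libraries share only a number. Gene positions come from Gencode M21 for GRCm38.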

Additional observations from a re-analysis of the deposited data

Results flagged for a closer look

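Among 70 sets of 4 libraries (each of the 10 genes in each group of 4), 8 had a highest or lowest library whose gap to the nearest other exceeded Dixon's 95% critical value, and chance gives about 1 in 20. All are CPM of the library total. In O-WT HSCs, Kcnq1ot1 was lowest in library 2, at 548.599 against 564.457 to 566.596 in the others, and Snhg8 was highest in library 1, at 32.1896 against 21.1988 or less. In O-NR HSCs, Snhg3 was highest in library 3, at 5.59604 against 3.65752 or less, and Snhg12 was highest in library 4, at 39.5605 against 33.2929 or less. In O-NR CLPs, Snhg12 was lowest in library 1, at 27.1893 against 32.9818 or more. In GMPs, Snhg5 was highest in O-WT library 1, at 48.5217 against 40.5578 or less, and in O-NR library 4, at 52.2567 against 47.0603 or less, while Snhg8 was highest in O-NR library 3, at 25.2137 against 20.836 or less. None of these libraries was left out of the main results.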

How the results depend on the processing

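Of 1729 alternative values for 68 folds (those that passed, those of O-WT against HSCs, and the NR folds that are named), 48 had the opposite sign. These 48 include some that also lost or gained a call. Of the values that kept their sign, 51 lost and 8 gained a call. The calls of Malat1, Neat1 and Snhg5 in CLPs and GMPs against HSCs held under every alternative run, in O-WT and O-NR. The count of genes called moved by over 1.5 times in 4 comparisons. Between GMPs and CLPs of O-WT it was 2 with upper quartile scaling, 3 with the receptor covariate, 3 with the 12 O-WT libraries alone and 2 to 7 with 1 library left out. In O-NR it was 4 with upper quartile scaling, 4 with library totals, 1 without a filter, 1 with the replicate block, 5 with the covariate and 1 to 2 with 1 library left out. Between cohorts it was 1 with the covariate, and for the NR effect between cohorts 9 with the replicate block. The block moved no count by over 1.5 times but those given here, and among single genes it lost the calls of Kcnq1ot1 in O-NR and Snhg3 in O-WT between GMPs and CLPs. That block could not be fitted for cohort 1 against cohort 2. The cause of these moves was not tested.

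Upper quartile scaling gave Gas5 in O-WT CLPs against HSCs 0.038 and Kcnq1ot1 in GMPs against HSCs -0.12. Library totals gave, against HSCs in GMPs, Kcnq1ot1 -0.28, Gas5 -0.059 and Snhg8 -0.12, and against CLPs, Gas5 -0.027 and Snhg5 -0.046. The covariate gave Gas5 0.0057 in CLPs against HSCs. In GMPs against HSCs it gave Kcnq1ot1 -0.21, Gas5 -0.15 and Snhg8 -0.26, and against CLPs Gas5 -0.15, Snhg5 -0.075 and Snhg8 -0.14. Between cohorts it gave Malat1 0.11 and Snhg8 0.34. Snhg12 in GMPs against HSCs was 0.10 without a filter and 0.13 with DESeq2. With 1 library left out, Gas5 in CLPs ran from -0.44 to 0.020, and in GMPs Kcnq1ot1 from -0.041 to 0.23 and Snhg12 from -0.18 to 0.11. For the effect of NR, the difference of GMPs and HSCs in Zfas1 was 0.036 with upper quartile scaling, 0.068 with library totals, 0.14 with the covariate and -0.20 to 0.059 with 1 library left out. In cohort 1, Zfas1 with NR was 0.014 with upper quartile scaling, 0.022 with library totals, 0.029 with DESeq2, 0.12 with the covariate and -0.24 to 0.17 with 1 library left out. Without the 4 libraries of high receptor gene CPM it was 0.44, Snhg8 with NR 0.057, Snhg1 in O-NR-RC against O-WT 0.51 and Malat1 with NR over both cohorts 0.046. With 1 library left out, Malat1 in HSCs of cohort 2 ran from -0.14 to 0.041 and Neat1 in CLPs from -0.15 to 0.13, while in cohort 1 Snhg8 in O-NR-RC against O-NR ran from -0.58 to 0.44 and Snhg1 in O-NR-RC against O-WT from -0.85 to 0.072.

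Low read counts limit Snhg3, and the scaling limits every fold under about 0.5 between cell types and some above it. Between O-WT GMPs and CLPs, Snhg3 and Snhg8 were above 0.5 with TMM but at 0.11 and 0.097 with library totals.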
